A study of Mus musculus with 6 samples.

Results

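The 43 genes described here encode the machinery that copies DNA. They were taken by name from a table of 24080 genes measured by RNA sequencing in cultured mouse endothelial cells, and all 43 were in the table and passed the filter on low values. They cover origin licensing, the MCM2-7 helicase and its activation, the polymerases, the sliding clamp and its loader, single-strand binding, Okazaki fragment maturation, nucleotide supply and 2 E2F transcription factors. Total RNA was sequenced in 3 libraries of VEC-null cells, an endothelial line grown from mouse embryonic stem cells that carry a homozygous null mutation of the VEC gene (*Cdh5*, the cadherin of endothelial junctions). Another 3 libraries came from VEC-positive cells, made from that line by retroviral transfer of wild-type VEC. The replicates were described as biological. As 1 line was compared with its own derivative, an effect of VEC and any other difference between the lines cannot be told apart. The comparison asks which transcripts differ when VEC is put back.

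DNA replication starts in G1, when the origin recognition complex, CDC6 and CDT1 load the MCM2-7 helicase onto DNA as an inactive double ring. In S phase, the DBF4-CDC7 kinase and the cyclin-dependent kinases recruit CDC45 and the GINS complex, which turn that ring into a working helicase. Polymerases alpha, delta and epsilon then copy both strands, with RPA on the single strands and the PCNA clamp behind the polymerases. Many of these genes are known E2F targets whose transcripts rise at the G1/S boundary, and endothelial cells at confluence generally leave the cycle. In bulk RNA, fewer cycling cells and less transcript per cycling cell cannot be told apart.

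E2F factors bind short GC-rich words near gene starts. The pieces below come from the promoters of the 5 fallen genes with such a word and the largest changes, and of *Rfc3*, which did not pass the test, and they are shown because the words lie in both kinds of gene. Capitals mark the words searched, TTTCCCGC, TTTGGCGC, TTTCGCGC and TTTGCCGC, on either strand. Sequences are from RefSeq (build GRCm38.p6), each read 5′ to 3′ on the strand of its gene. They are *Pola1* at chrX:93632271-93632308 (minus strand), *Mcm6* at chr1:128359730-128359830 (minus), *Mcm3* at chr1:20820266-20820295 (minus), *Orc1* at chr4:108579412-108579449 (plus), *Mcm5* at chr8:75109341-75109382 (plus) and *Rfc3* at chr5:151651195-151651224 (minus). The *Mcm3* piece lies just after the start in RefSeq and the *Rfc3* piece spans it, whereas the others lie before it.
Pola1: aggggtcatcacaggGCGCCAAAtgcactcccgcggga
Mcm6: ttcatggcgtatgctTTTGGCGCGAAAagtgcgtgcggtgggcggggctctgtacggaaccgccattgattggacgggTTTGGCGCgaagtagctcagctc
Mcm3: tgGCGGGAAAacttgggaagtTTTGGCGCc
Orc1: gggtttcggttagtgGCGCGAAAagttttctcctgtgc
Mcm5: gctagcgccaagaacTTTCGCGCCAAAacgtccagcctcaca
Rfc3: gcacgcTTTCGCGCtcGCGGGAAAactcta

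RefSeq windows from 250 bases before to 50 bases after the start were at hand for 35 of the 43 genes, and 14 of them (40%) held at least 1 of these words. Of all 27025 genes with a window, 2.60% held 1, and of the 9463 tested genes with a window, 4.82%. Of the 1533 tested genes that fell and had a window, 7.37% held 1. The word was equally frequent among the 25 replication genes that fell and had a window (10 genes, 40%) and among the 10 not called lower (4 genes, 40%). Those 4, *E2f2*, *Pold1*, *Pole2* and *Rfc3*, also had log2 fold changes below 0 (−0.59, −0.43, −0.33 and −0.23). The 2 sets thus differ in passing the threshold and not in direction for these 4. *Mcm6* and *Mcm5* each had a pair of words that overlap each other on opposite strands, and *Mcm6* had a further word nearer its start. The same 4 words with their first T left off, which lie inside the longer ones, were in 22 of the 35 windows (62.9%), against 19.8% of the windows of tested genes. The CCAAT box was also in 22 (62.9%, against 43.4% of tested genes). TTTGAA, the CHR element of many genes of the later cycle, was in 8 (22.9%, against 14.4% of tested genes and 20.2% of all genes with a window). It was in 4 of the 25 that fell (16%) and in 4 of the 10 not called lower (40%). These are matches of letters and not binding data.

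Library depth was 6036155 to 14136376 reads, with VEC-null 1 the shallowest. VEC-null 3 stood apart from the other VEC-null libraries, since its chi-square distance to them was 50.4 and 48.8 per gene, where VEC-null 1 and 2 were 6.58 apart, so counts are given with and without it. *Cdh5* itself was higher in the libraries labelled VEC-null (1487 ± 182 normalized counts, SD, n = 3) than in those labelled VEC-positive (761 ± 29.2). The sources used here do not say which bases the null mutation removes, so this value does not check the labels, and every direction below is by label. *Cldn5*, which encodes claudin-5 of endothelial tight junctions and is known to depend on VEC, read 6.38 ± 2.49 in the libraries labelled VEC-null and 459 ± 46.7 in those labelled VEC-positive, and *Vwf*, von Willebrand factor, 401 ± 13.5 and 1746 ± 80.3. The 12 endothelial markers summed to 49039 to 52266 normalized counts in VEC-null and 71939 to 73913 in VEC-positive libraries. Summed pluripotency markers stayed at or under 13.7. The blood markers summed to 419, 408 and 120 in VEC-null 1 to 3 and to 166, 112 and 157 in VEC-positive 1 to 3, most of it *Itgam*, an integrin of myeloid cells, while *Ptprc*, the pan-leukocyte marker, stayed at or under 3.23. The mural and fibroblast markers summed to 81.6 to 205 in VEC-null and 238 to 283 in VEC-positive libraries, but they did not move together. *Pdgfrb*, a mural marker, was near 0 in VEC-null cells (1.10 ± 0.961) and at 105 ± 11.4 in VEC-positive cells. The means of *Pdgfra*, *Col1a1* and *Dcn* were also higher in VEC-positive cells. Those of *Acta2* (19.4 ± 10.7 and 8.59 ± 4.92), *Rgs5* (4.52 ± 1.82 and 2.21 ± 3.16) and *Col1a2* (80.2 ± 58.2 and 72.7 ± 22.5) were lower, with overlapping groups. Mitochondrial transcripts took 9.62% to 14.9% of reads in VEC-null and 17.97% to 24.2% in VEC-positive libraries. The part of these differences in the results below was not tested.

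Most replication genes were lower in VEC-positive cells. By limma with Benjamini-Hochberg adjustment over 14032 tested genes, 31 of the 43 fell in VEC-positive relative to VEC-null cells, 1 rose (*Rfc1*) and 11 did not pass at an adjusted p of 0.05. Of all tested genes, 16.4% fell and 20.9% rose. The fall was at least 2-fold in 10 of the 43 genes, against 6.99% of all tested genes. In 34 of the 43 every VEC-positive library lay below every VEC-null library, against 22.8% of all tested genes. The median log2 fold change was −0.60 over the 43 genes and −0.01 over all tested genes, and 40 of the 43 values were below 0. Without VEC-null 3, 35 of the 43 fell and 1 rose, where 23.9% of all tested genes fell and 27.1% rose. The 43 genes summed to 20629 to 23643 normalized counts in VEC-null and 14297 to 14934 in VEC-positive libraries.

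**Figure D1:**
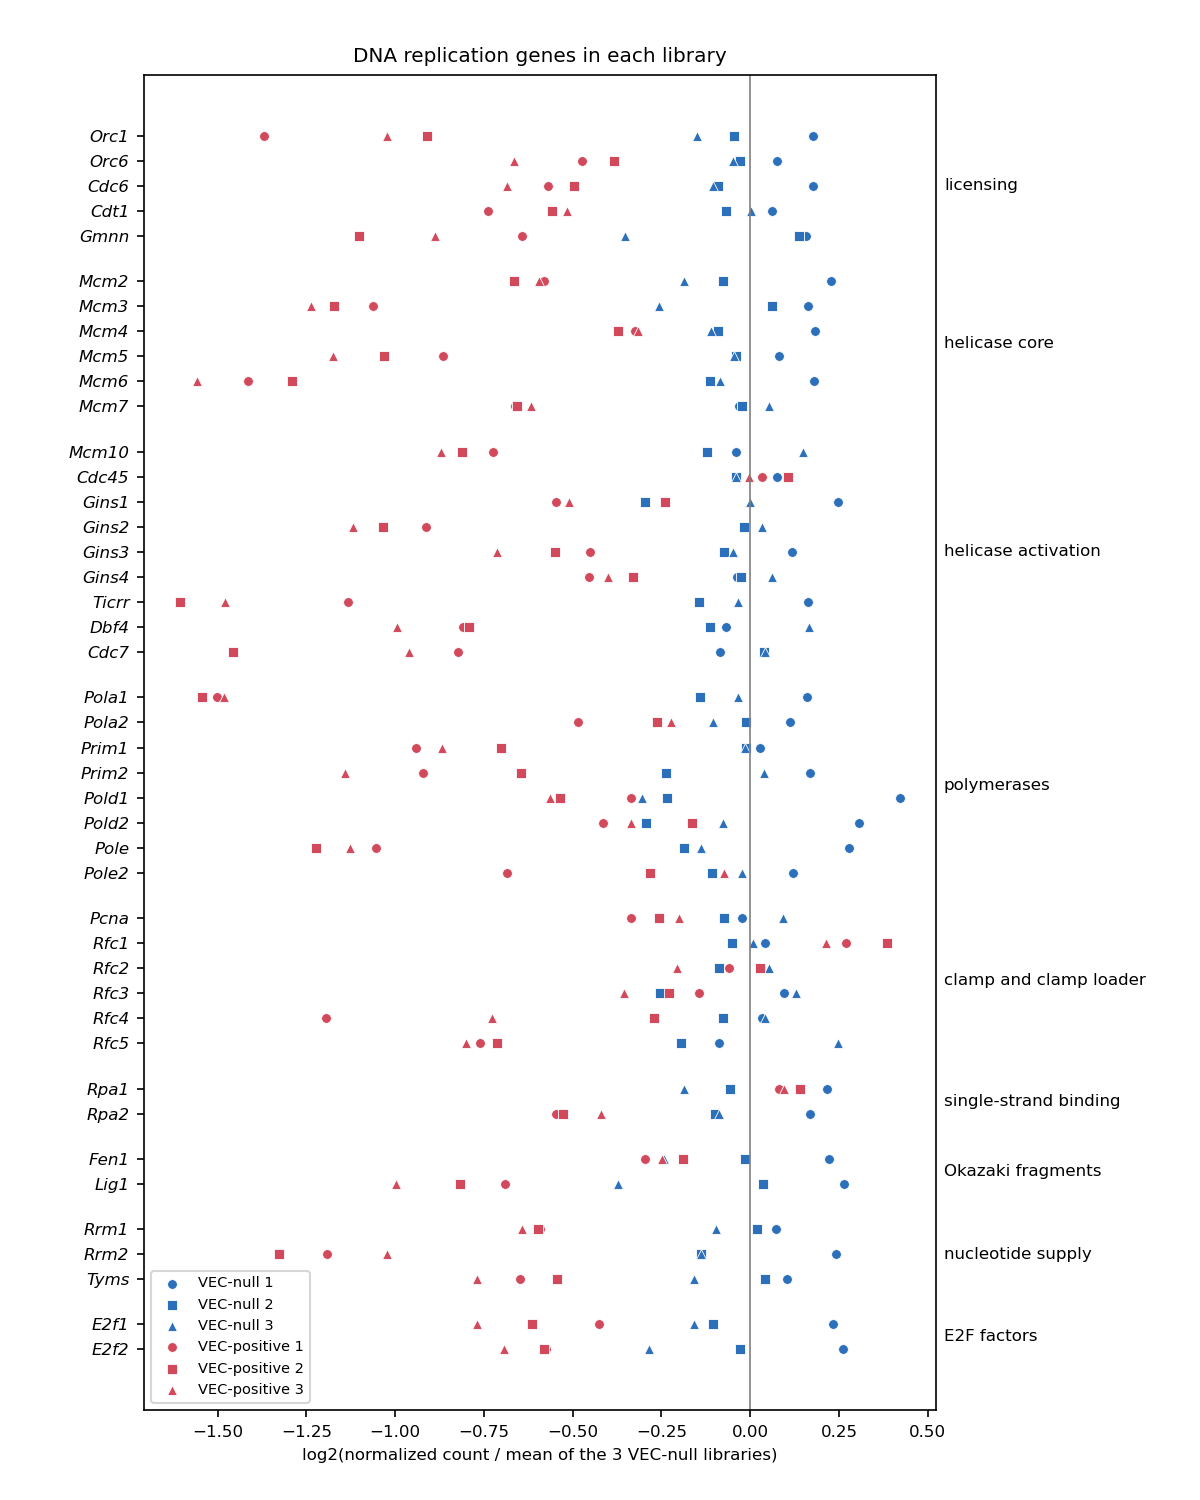
Each point is 1 library, with the log2 ratio of its normalized count to the mean of the 3 VEC-null libraries on the x axis and the 43 replication genes by step on the y axis (blue, VEC-null; red, VEC-positive; symbols, replicate numbers). Red points lie to the left of all blue points in 34 genes and to the right in *Rfc1*.

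All 5 licensing genes fell, with a median log2 fold change of −0.60, and in each of them the groups did not overlap. ORC1 is the large ATPase of the origin recognition complex, and *Orc1* read 106, 90.6 and 84.2 normalized counts in VEC-null and 36.2, 49.7 and 46.0 in VEC-positive libraries. This was a log2 fold change of −1.08 (SE 0.19, limma adjusted p = 0.00312), the only licensing gene to fall at least 2-fold. *Orc6*, the smallest subunit of that complex, went from 195 ± 9.19 to 137 ± 13.4 (−0.50, adjusted p = 0.0129), and its call was lost without VEC-positive 3 (−0.43, adjusted p = 0.0535). *Cdc6*, the ATPase that joins the complex on DNA, read 187 ± 21.1 and 125 ± 8.19 (−0.57, adjusted p = 0.00974). CDT1 brings the helicase to the origin, and geminin, the product of *Gmnn*, blocks CDT1 once S phase has begun. *Cdt1* read 136 ± 6.18 and 89.8 ± 7.19 (−0.60, adjusted p = 0.00884). *Gmnn* read 93.3, 92.1 and 65.6 in VEC-null and 53.7, 39.0 and 45.2 in VEC-positive libraries, so VEC-null 3 was the lowest of its group and still above all VEC-positive libraries (−0.85, adjusted p = 0.0162). The *Gmnn* call was lost when VEC-null 1, VEC-null 2, VEC-positive 2 or VEC-positive 3 was left out, with adjusted p of 0.0516, 0.0622, 0.0651 and 0.0535 and log2 fold changes of −0.76, −0.77, −0.74 and −0.84.

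All 6 subunits of the MCM2-7 ring fell, and in none of them did the groups overlap, but the size of the fall ranged from −0.33 to −1.41 on the log2 scale. *Mcm6* read 926, 756 and 771 normalized counts in VEC-null libraries and 307, 334 and 278 in VEC-positive libraries. It fell most of the ring (−1.41, SE 0.11, limma adjusted p = 5.25e-05), 2.66-fold. *Mcm3* read 1570, 1463 and 1175 against 672, 622 and 595 (−1.15, SE 0.12, adjusted p = 0.000172). *Mcm5*, the partner of MCM2 at the gate of the ring, read 729 ± 36.4 and 360 ± 38.7 (−1.02, adjusted p = 0.000144). *Mcm7* (−0.64, adjusted p = 0.000268) and *Mcm2* (−0.60, adjusted p = 0.00366) fell by less than 2-fold. *Mcm4* fell least: it read 1507, 1245 and 1229 in VEC-null and 1060, 1026 and 1067 in VEC-positive libraries (−0.33, adjusted p = 0.0251). The *Mcm4* call was lost without VEC-null 1 (−0.24, adjusted p = 0.0532) and without VEC-positive 1, 2 or 3 (−0.34, −0.31 and −0.34, with adjusted p of 0.0770, 0.0910 and 0.0671).

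The 6 proteins enter the ring in equal numbers, so their transcripts were also compared per kb of annotated transcript, a description added after the values were seen and given without a test. The summed level of the ring was 1945 ± 185 normalized counts per kb in VEC-null and 1110 ± 27.6 in VEC-positive cells, 1.75-fold lower. In VEC-null cells *Mcm3* was the most abundant subunit (463 ± 67.4 per kb), followed by *Mcm4* (370 ± 43.5), *Mcm2* (327 ± 50.02), *Mcm7* (288 ± 9.26), *Mcm6* (281 ± 32.3) and *Mcm5* (216 ± 10.8). The spreads of neighbours in this order overlap down to *Mcm6*, but they hold differences between whole libraries. Within every VEC-null library *Mcm3* lay above *Mcm4* and *Mcm4* above *Mcm2*. The order of *Mcm2* and *Mcm7*, and that of *Mcm7* and *Mcm6*, changed between libraries. In VEC-positive cells the order was *Mcm4* (293 ± 6.14), *Mcm2* (214 ± 6.62), *Mcm3* (208 ± 12.9), *Mcm7* (184 ± 3.11), *Mcm5* (106 ± 11.5) and *Mcm6* (105 ± 9.71). There *Mcm4* stood clear of the rest, and *Mcm2* with *Mcm3*, and *Mcm5* with *Mcm6*, did not differ beyond their spread. As a share of the summed level within a library, *Mcm4* went from 19.0% ± 0.617 to 26.4% ± 0.797, *Mcm3* from 23.7% ± 1.95 to 18.7% ± 0.699 and *Mcm6* from 14.4% ± 0.624 to 9.48% ± 0.861. These shares do not depend on how libraries are scaled, and the groups overlapped for *Mcm7* alone.

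**Figure D2:**
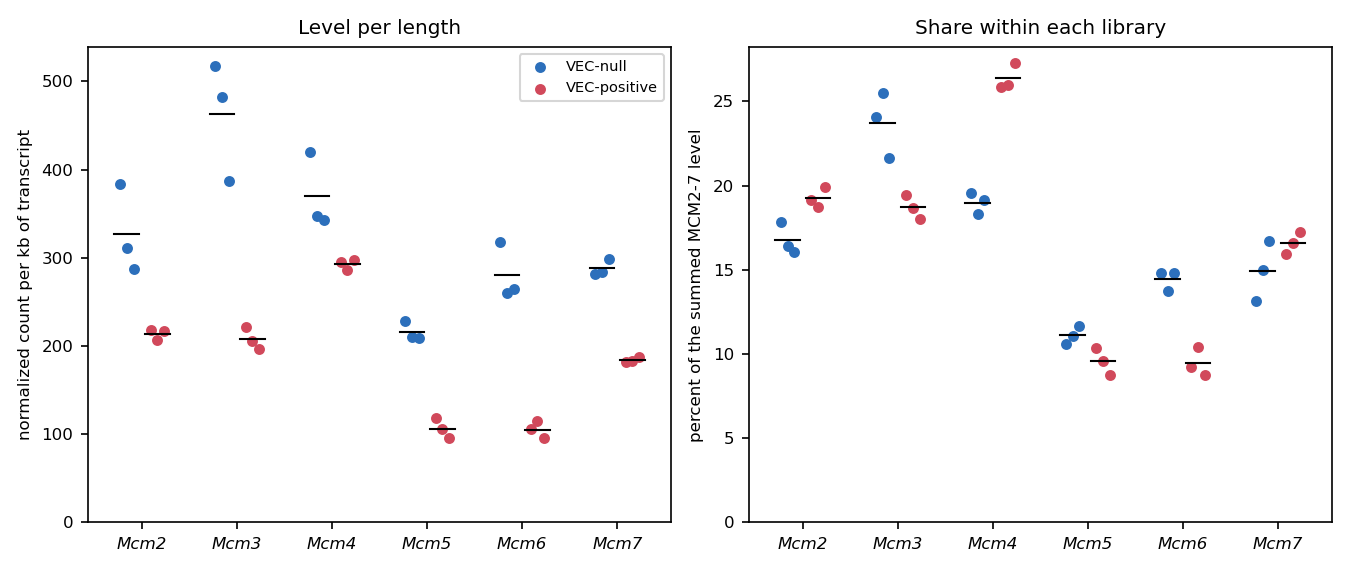
Levels of the 6 MCM2-7 transcripts in each library, as normalized counts per kb of transcript (left) and as a percent of their sum in the same library (right); points are libraries and black lines are group means of 3. The share of *Mcm4* rises from 19.0% to 26.4% and that of *Mcm6* drops from 14.4% to 9.48%.

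Of the 9 genes that turn the ring into an active helicase, 7 fell and 2 did not pass. TICRR (treslin) brings CDC45 to the ring on a signal from cyclin-dependent kinase, and *Ticrr* read 375, 303 and 327 normalized counts in VEC-null and 153, 110 and 120 in VEC-positive libraries. Its log2 fold change was −1.39 (SE 0.15, limma adjusted p = 0.000242), the largest of this step. *Cdc7*, the kinase that marks the ring for activation, read 99.0 ± 4.88 and 47.6 ± 10.4 (−1.06, adjusted p = 0.00425), and its regulatory subunit *Dbf4* read 687 ± 73.2 and 378 ± 28.7 (−0.86, adjusted p = 0.000459). *Mcm10*, needed for the activated helicases to part, fell by 0.79 on the log2 scale (adjusted p = 0.000702). In none of these genes did the groups overlap.

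The 4 GINS subunits act as 1 complex of equal parts, and their values differed. *Gins2* (PSF2) read 301, 302 and 312 in VEC-null and 162, 149 and 140 in VEC-positive libraries, a tight and separate pair of groups (−1.02, limma adjusted p = 0.000168). *Gins3* read 147 ± 10.8 and 99.1 ± 8.93 (−0.56, adjusted p = 0.0125), a call lost without VEC-positive 3 (−0.49, adjusted p = 0.0532). *Gins4* read 173 ± 6.47 and 131 ± 5.72 (−0.39, adjusted p = 0.0258). That call was lost without VEC-null 2 or VEC-positive 1, 2 or 3, with values from −0.36 to −0.42 and adjusted p of 0.0620, 0.0933, 0.0626 and 0.0789, and also by DESeq2 (adjusted p = 0.0732). *Gins1*, the least abundant, read 50.5, 34.7 and 42.6 against 29.2, 36.0 and 29.9, so the groups overlapped and it did not pass (−0.40, 95% interval −0.94 to 0.13, adjusted p = 0.207).

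CDC45 is the third part of the active helicase, beside the ring and GINS, and *Cdc45* did not pass the test. It read 666, 615 and 615 normalized counts in VEC-null and 646, 680 and 631 in VEC-positive libraries, with overlapping groups (0.05, 95% interval −0.13 to 0.22, limma adjusted p = 0.669). The sign of this value turned with scaling to equal totals (−0.26, adjusted p = 0.0218) and with equal totals without mitochondrial transcripts (−0.10, adjusted p = 0.345). *Cdc45* lies head to head with *Ufd1* on the opposite strand, and the 2 annotated genes overlap by 209 bases. *Ufd1*, a partner of the segregase that takes ubiquitylated proteins apart, rose from 928 ± 53.6 to 1283 ± 65.6 (0.47, adjusted p = 0.00229). *Cldn5*, which also rose (6.01, limma adjusted p = 2.14e-06), lies close to the other end of *Cdc45*. It too is on the opposite strand, and the annotated genes do not overlap. Any part of *Cldn5* in the *Cdc45* value was not tested. The library kit keeps strand, but the sources used here do not say whether counting used it, and the part of shared reads in the *Cdc45* value was not tested.

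All 8 polymerase genes had values below 0, and 4 of the 8 passed the threshold. *Pola1*, the catalytic subunit of polymerase alpha, read 1070, 868 and 934 normalized counts in VEC-null and 338, 328 and 343 in VEC-positive libraries. This 2.83-fold difference was the largest of the 43 genes (log2 fold change −1.50, SE 0.09, limma adjusted p = 1.63e-05). The primase subunits work in the same complex, where they lay the RNA primer that POLA1 extends. *Prim1* read 233 ± 3.77 and 131 ± 11.3 (−0.83, adjusted p = 0.000764) and *Prim2* read 318 ± 44.6 and 172 ± 29.8 (−0.89, adjusted p = 0.00325). *Pola2*, the remaining subunit, read 303, 278 and 261 against 201, 234 and 240. Its groups did not overlap, but it did not pass (−0.32, 95% interval −0.58 to −0.06, adjusted p = 0.0592) except without VEC-null 3 (−0.37, adjusted p = 0.0230) and under both scalings to equal totals (adjusted p = 0.00255 and 0.0165).

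Polymerase epsilon copies the leading strand and polymerase delta the lagging strand. *Pole*, the catalytic subunit of epsilon, read 588, 426 and 440 normalized counts in VEC-null and 233, 207 and 222 in VEC-positive libraries (−1.12, SE 0.14, limma adjusted p = 0.000457). Its second subunit *Pole2* was low in all libraries, at 49.0, 41.7 and 44.3 against 27.99, 37.0 and 42.8, and the groups overlapped (−0.33, 95% interval −0.86 to 0.19, adjusted p = 0.285). *Pold1*, the catalytic subunit of delta, read 144, 91.4 and 86.9 in VEC-null and 85.1, 74.0 and 72.6 in VEC-positive libraries. VEC-null 1 was well above all others, the groups were separate by a narrow gap, and *Pold1* did not pass (−0.43, 95% interval −0.93 to 0.06, adjusted p = 0.152), except without VEC-null 3 (−0.57, adjusted p = 0.0497) and with equal totals (−0.74, adjusted p = 0.0250). Without VEC-null 1 the *Pold1* value shrank to −0.21 (limma adjusted p = 0.395). *Pold2*, the accessory subunit of delta, overlapped between groups and did not pass either (91.6 ± 19.6 and 74.4 ± 6.69, −0.28, 95% interval −0.72 to 0.16, adjusted p = 0.288).

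The clamp and its loader held the smallest changes of any step with more than 2 genes, with a median log2 fold change of −0.25, 3 of 6 genes lower and 1 higher. PCNA is the ring that holds polymerases on DNA, and *Pcna* read 1268, 1225 and 1372 normalized counts in VEC-null and 1022, 1077 and 1122 in VEC-positive libraries. The groups did not overlap (−0.26, SE 0.08, limma adjusted p = 0.0292), but the call was lost without VEC-null 1 or VEC-positive 1, 2 or 3, with adjusted p of 0.0580, 0.119, 0.0901 and 0.0536 and log2 fold changes of −0.27, −0.23, −0.27 and −0.29. A processed pseudogene, *Pcna-ps2*, was counted at 191 ± 20.5 and 170 ± 19.0, so reads may be split between near-identical copies and the *Pcna* level is uncertain to that extent.

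Replication factor C opens the clamp and closes it around DNA, and its 5 subunits differed in direction. *Rfc1*, the large subunit, read 1097, 1030 and 1072 normalized counts in VEC-null and 1287, 1393 and 1236 in VEC-positive libraries, all above the VEC-null values (0.29, SE 0.07, limma adjusted p = 0.0176). That rise was lost without VEC-null 2, VEC-positive 1 or VEC-positive 2 (0.27, 0.30 and 0.24, with adjusted p of 0.0601, 0.0596 and 0.0827), and the sign turned with scaling to equal totals (−0.02, adjusted p = 0.821). *Rfc5* fell from 267 ± 43.9 to 158 ± 4.69 (−0.74, adjusted p = 0.00336). *Rfc4* read 191, 177 and 192 in VEC-null and 81.6, 155 and 113 in VEC-positive libraries, the widest spread between VEC-positive libraries, relative to the mean, of the 43 genes (−0.72, SE 0.22, adjusted p = 0.0318). The *Rfc4* call was lost without VEC-null 1, VEC-null 2, VEC-positive 1 or VEC-positive 3, with log2 fold changes of −0.71, −0.76, −0.49 and −0.73 and adjusted p of 0.0779, 0.0697, 0.0807 and 0.0848. *Rfc4* overlaps *Eif4a2*, a translation factor gene on the opposite strand, by 194 bases, and *Eif4a2* rose (1522 ± 331 and 2758 ± 147, 0.88, adjusted p = 0.00231). *Rfc2* (250 ± 13.0 and 238 ± 19.2, −0.08, 95% interval −0.32 to 0.17, adjusted p = 0.599) and *Rfc3* (229 ± 32.3 and 194 ± 14.3, −0.23, 95% interval −0.54 to 0.08, adjusted p = 0.216) overlapped between groups and did not pass.

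RPA coats single-stranded DNA at the fork, and its large and middle subunits were both measured here. *Rpa1* read 1310, 1084 and 991 normalized counts in VEC-null and 1193, 1244 and 1205 in VEC-positive libraries, overlapping groups with a log2 fold change of 0.11 (95% interval −0.13 to 0.36, limma adjusted p = 0.429), which was −0.20 with equal totals and −0.03 without mitochondrial transcripts. *Rpa2* fell from 215 ± 23.3 to 152 ± 7.34 (−0.49, adjusted p = 0.0138), and its call was lost without VEC-positive 1 (−0.47, adjusted p = 0.0572) or VEC-positive 2 (−0.48, adjusted p = 0.0549). Okazaki fragments are trimmed by the flap endonuclease FEN1 and sealed by DNA ligase 1. *Lig1* read 1539, 1314 and 990 in VEC-null and 794, 727 and 642 in VEC-positive libraries, with VEC-null 3 again the lowest of its group (−0.81, SE 0.16, adjusted p = 0.00511). *Fen1* read 441, 374 and 319 against 308, 331 and 318. The groups overlapped through VEC-null 3, and *Fen1* did not pass (−0.23, 95% interval −0.52 to 0.06, adjusted p = 0.186) except without that library (−0.35, adjusted p = 0.0164) and under both scalings to equal totals (adjusted p = 0.00946 and 0.0390).

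All 3 nucleotide supply genes fell, and in none did the groups overlap. Ribonucleotide reductase makes deoxynucleotides from ribonucleotides, with a large subunit, RRM1, and a small subunit, RRM2, which is known to be made and destroyed with the cycle. *Rrm1*, the gene of the 43 with the most normalized counts, read 2341, 2258 and 2084 in VEC-null and 1477, 1473 and 1428 in VEC-positive libraries (−0.61, SE 0.07, limma adjusted p = 0.000386). *Rrm2* read 419, 322 and 322 against 155, 141 and 174 (−1.16, SE 0.14, adjusted p = 0.000438). *Tyms*, which makes thymidylate, read 433 ± 39.9 and 276 ± 21.5 (−0.65, adjusted p = 0.00216). The calls of these 3 genes held in all 17 alternative settings of the test.

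E2F1 and E2F2 are activator E2F factors, the known drivers of many genes above. *E2f1* read 145, 115 and 111 normalized counts in VEC-null and 92.1, 80.9 and 72.6 in VEC-positive libraries (−0.59, SE 0.17, limma adjusted p = 0.0262). Its groups did not overlap, but its call was lost without VEC-null 1, VEC-null 2, VEC-positive 2 or VEC-positive 3 (−0.47, −0.63, −0.58 and −0.50, with adjusted p of 0.0768, 0.0523, 0.0817 and 0.0945). *E2f2* read 75.0, 61.4 and 51.4 against 42.0, 41.9 and 38.7. It had the same size of difference and separate groups but did not pass (−0.59, SE 0.20, 95% interval −1.05 to −0.12, adjusted p = 0.0524). It passed in 7 of 17 alternatives, among them edgeR (adjusted p = 0.0451) and the fit without VEC-null 3 (−0.72, adjusted p = 0.0171).

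**Figure D3:**
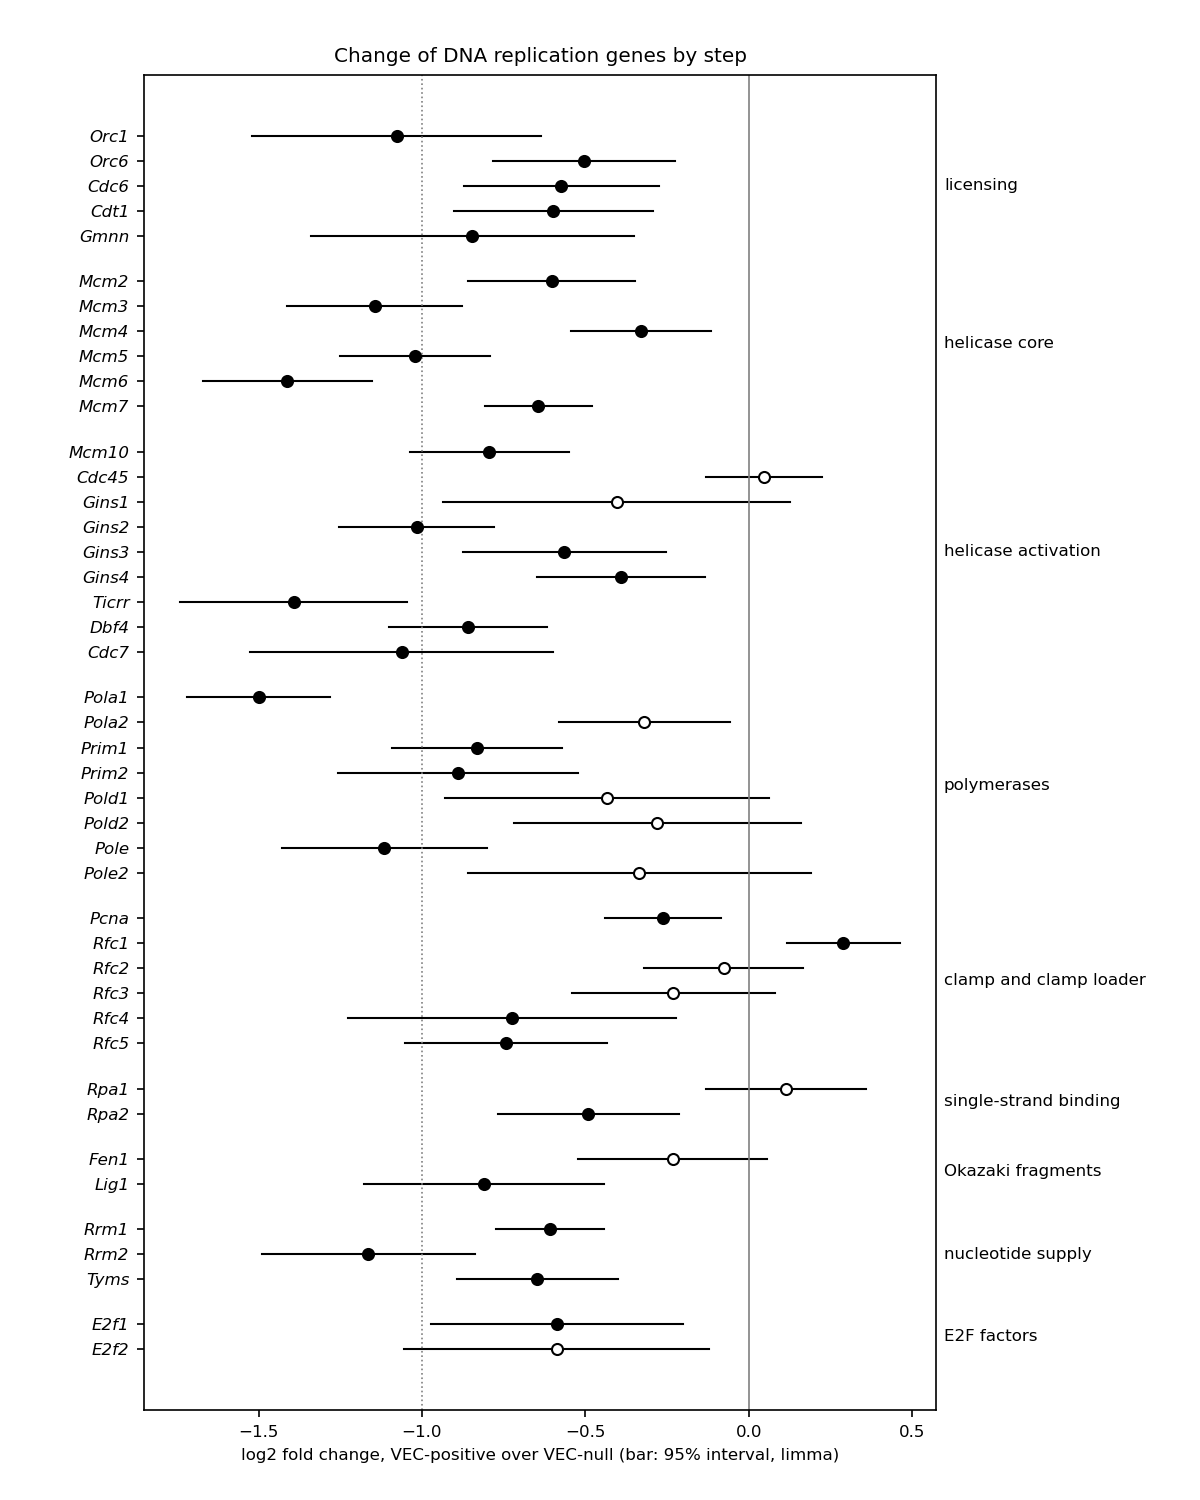
Log2 fold change of each replication gene, VEC-positive over VEC-null, with its 95% interval from limma (bars); filled circles passed an adjusted p of 0.05 and open circles did not, and the dotted line marks a 2-fold fall. *Pola1* lies farthest to the left at −1.50, and *Rfc1* is the filled circle to the right of 0.

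Ratios of functional partners were taken within each library, which leaves out how libraries are scaled. In 4 of 7 pairs the log2 ratio was lower in every VEC-positive than in every VEC-null library. The pairs were chosen with earlier results of these data known. The share of other gene pairs that separate in this way was not taken, so this count has no background beside it. The differences were −0.68 for *Pole* to *Pold1*, −0.67 for *Pola1* to *Prim1*, −0.57 for *Orc1* to *Orc6* and −0.56 for *Rrm2* to *Rrm1*. Each reached p = 0.1 in a two-sided exact permutation test, the smallest that 3 against 3 libraries allow (0.175 adjusted over the 7 pairs). In the other 3 pairs the groups overlapped. The log2 ratio of *Gmnn* to *Cdt1*, the inhibitor to its target, differed by −0.25 (exact p = 0.3, 0.42 adjusted), that of *Dbf4* to *Cdc7* by 0.20 (exact p = 0.7, 0.817 adjusted) and that of *E2f1* to *E2f2* by 0.0018 (exact p = 1).

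**Figure D4:**
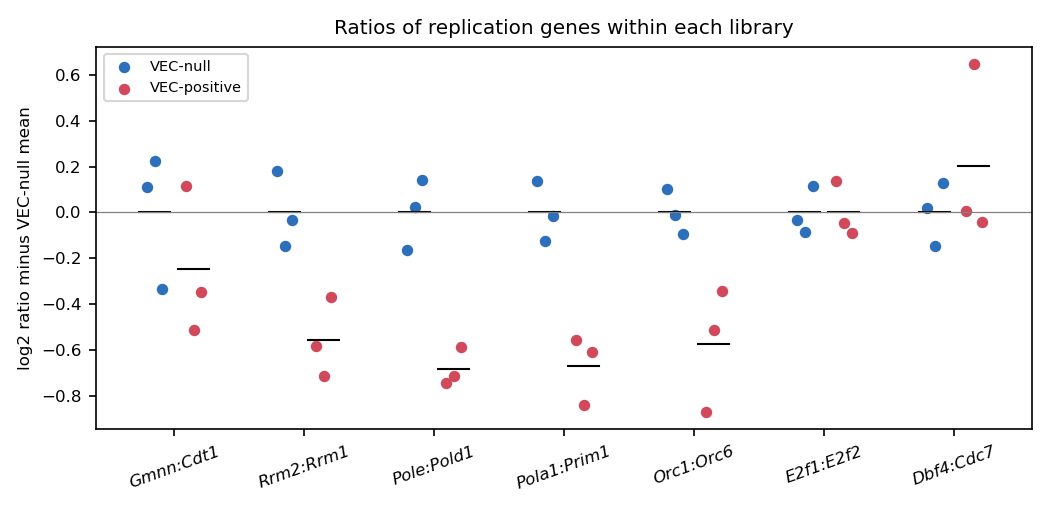
Log2 ratio of 7 pairs of replication genes in each library, set relative to the VEC-null mean of that pair (points, libraries; black lines, means of 3). VEC-positive points lie below all VEC-null points for *Rrm2:Rrm1*, *Pole:Pold1*, *Pola1:Prim1* and *Orc1:Orc6*.

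Libraries of 1 group were not ordered alike in all genes. VEC-null 1 was the highest VEC-null library for 32 of the 43 genes, and its median log2 deviation from the group mean was 0.12. VEC-null 3 was the highest for the other 11, among them *Mcm7*, *Mcm10*, *Gins2*, *Dbf4*, *Pcna* and *Rfc5*, and the lowest for 19. VEC-positive libraries were closer together, with median deviations from −0.04 to 0.04.

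Beyond the 43 genes, 54 other replication genes were measured, of which 24 fell (44.4%), 3 rose and 27 did not pass. The shares over all tested genes were 16.4% lower and 20.9% higher. The median log2 fold change of the 54 genes was −0.35. Their steps hold 4 to 17 genes, so counts by step are coarse beside these shares and were not tested against them. In the origin and licensing step 3 of 7 fell. Of these, the MCM relatives *Mcm8* (96.4 ± 12.0 and 36.5 ± 5.25, −1.38) and *Mcm9* (−0.72) act in recombination. The remaining gene that fell was *Orc2* (−0.34), of the origin recognition complex. *Orc4* did not pass (0.08, limma adjusted p = 0.722). Nor did *Orc3* (−0.12, adjusted p = 0.486), *Orc5* (−0.29, adjusted p = 0.172) or *Mcmbp* (0.08, adjusted p = 0.533), named with *Orc2* after their values were seen. In origin firing 2 of 4 fell, *Recql4* (88.4 ± 8.38 and 41.3 ± 2.96, −1.08) and *Topbp1* (−0.30), and *Mtbp*, the partner of treslin, did not pass (−0.27, adjusted p = 0.0694). In fork and checkpoint genes 7 of 17 fell, led by *Chtf18* (112 ± 14.9 and 35.4 ± 1.72, −1.62), the large subunit of an alternative clamp loader. *Clspn*, the checkpoint mediator claspin, also fell (−0.99), and *Chtf8*, a further subunit of that loader, did not pass (0.03, adjusted p = 0.816). *Dscc1*, another subunit of that loader and named after its values were seen, fell (65.1 ± 17.1 and 33.0 ± 7.85, −0.95, limma adjusted p = 0.0254). In nucleotide supply 4 of 7 fell, among them *Tk1*, a thymidine kinase (264 ± 83.0 and 149 ± 13.3, −0.77), and *Dck* did not pass (−0.25, adjusted p = 0.0858).

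Chromatin assembly behind the fork fell in 3 of 4 genes, among them the histone chaperones *Asf1b* (77.0 ± 5.10 and 29.8 ± 2.99, −1.34) and *Chaf1a* (−0.83), and *Asf1a* did not pass (−0.36, limma adjusted p = 0.0582). Of the other E2F and RB family genes 4 of 11 fell, with *E2f8* (−0.96), a repressor E2F, and *Rbl1* (p107, −0.82) in front. *Tfdp1*, the common E2F partner, did not pass (−0.25, adjusted p = 0.0663). Of the S-phase genes for cyclins and the cyclin-dependent kinase *Cdk2*, 1 of 4 fell, near the 16.4% of all tested genes. This was *Ccna2* (782 ± 42.96 and 370.5 ± 3.11, −1.07), and *Ccne2* did not pass (0.11, adjusted p = 0.343). The 3 of the 54 that rose, a smaller share than the 20.9% of all tested genes, are named after their values were seen. They were *Timeless* (768 ± 91.4 and 1139 ± 116, 0.57), *Rrm2b* (244 ± 26.3 and 327 ± 22.7, 0.42) and *Rb1* (286 ± 39.1 and 371 ± 14.2, 0.38). TIMELESS steadies the fork, RRM2B is the p53-regulated small subunit of ribonucleotide reductase and RB1 holds activator E2Fs in check. With equal totals the counts were 44 lower and 0 higher, where 4960 of the 14032 tested genes were lower and 1566 higher. All 20 mitosis genes fell, against 16.4% of all tested genes, with a median of −1.21. The most abundant, *Mki67* (12735 ± 2619 and 5928 ± 326, −1.09) and *Top2a* (5789 ± 753 and 2471 ± 86.0, −1.22), were more than 2-fold lower. The mitosis genes moved with the replication genes, and their part in the result was not tested.

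**Figure D5:**
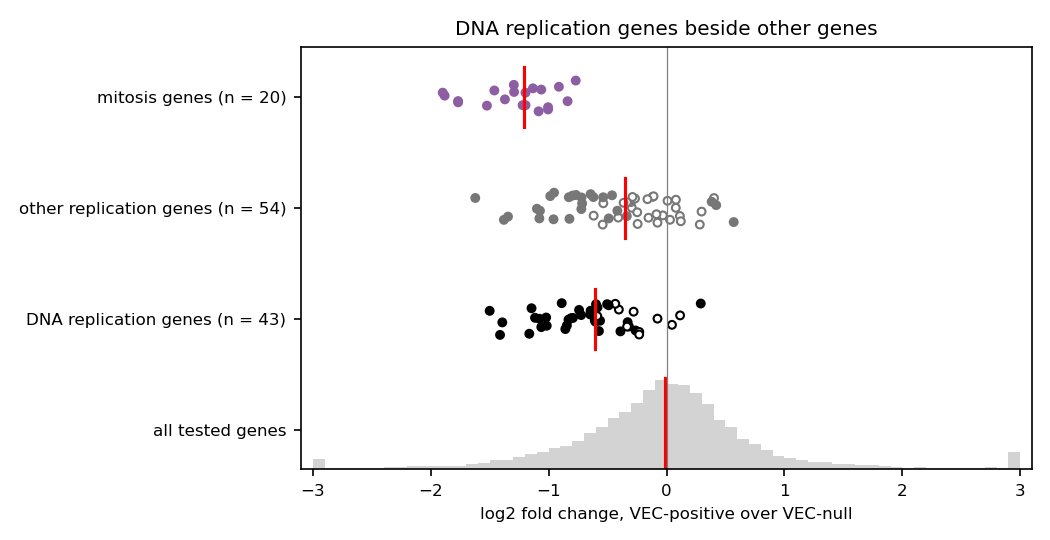
Log2 fold changes, VEC-positive over VEC-null, of the 43 DNA replication genes, 54 other replication genes and 20 mitosis genes (points, spread vertically for view; filled, adjusted p under 0.05), above the histogram of all tested genes (grey, values beyond 3 drawn at the edge). Red lines are medians, at −0.60, −0.35, −1.21 and −0.01.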

How the data were processed

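Libraries were prepared from total RNA of the mouse endothelial cells with a stranded kit, 3 from VEC-null and 3 from VEC-positive cells as labelled. Per the submitters' processing notes, reads were trimmed with Trim Galore, aligned with TopHat2 2.1.1 to mm10 and handled in DESeq2 1.14. For the counting program and its annotation, the sources used here give no name. The deposited signal values for 24080 genes are gene counts that the authors had divided by 1 size factor per library. In each library 100% of values were whole multiples of 1 step, within 0.01 of a read, so reads were recovered. Symbols, coordinates and transcript lengths were from GENCODE M21 (23908 genes matched), and promoter windows and the pieces printed from RefSeq.

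Genes with a value of at least 10 in at least 3 libraries (14032, with 10048 below) were fitted on log2(value + 1), on which scale fold changes of low genes are understated, in R 4.3.3 by limma-trend (limma 3.58.1). Two-sided p-values were adjusted by Benjamini-Hochberg over the 14032 genes, and an adjusted p under 0.05 was called. The genes, lists, partner pairs and words were chosen with earlier results of these data known. All 43 genes are named. Of the other replication genes, the rule names in each step the 2 called genes that changed most, where their mean reached 50, and up to 1 that did not pass with the highest mean. Of mitosis genes it names the 2 with the highest mean. A gene drawn by this rule is not reported here. Head-to-head neighbours had starts within 1000 bases on the other strand. Alternatives were other pseudocounts, filters and scalings, no trend, the replicate number as a block, leaving out each library, and count tests on the recovered reads by DESeq2 1.42.0 and edgeR 4.0.16, which called 30 and 32 of the 43 genes lower. The fits were also run on simulated data with a single fixed dispersion, changes of at least 2-fold and no outlying library. That run does not bear on smaller changes or on a library such as VEC-null 3. Figures were drawn with matplotlib 3.10.9.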

Additional observations from a re-analysis of the deposited data

How the results depend on the processing

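Of the 31 genes that fell, 22 were called in all 17 alternatives of the fit. The number of the 43 genes lower was 41 with equal totals, 34 with equal totals without mitochondrial transcripts, 32 with TMM factors, 29 without the trend and 23 to 35 when 1 library was left out. Equal totals moved the median of all tested genes from −0.01 to −0.32, and the median of the 43 genes lay 0.53 to 0.67 below that of all tested genes in every setting. With equal totals 18 of the 43 genes were at least 2-fold lower (7 to 11 when 1 library was left out). None was higher with equal totals, with equal totals without mitochondrial transcripts, without the trend or with the replicate block (0), and 0 or 1 was when 1 library was left out (0 without VEC-null 2, VEC-positive 1 or VEC-positive 2). Of the other replication genes, 44 were lower and 0 higher with equal totals, 1 was higher with equal totals without mitochondrial transcripts, and 1 to 6 when 1 library was left out (6 without VEC-null 3, 2 without VEC-null 1 and 1 without any other). Of all tested genes, 4960 were lower and 1566 higher with equal totals, against 2304 and 2927. With equal totals *Gins1*, *Pold2*, *Pole2*, *Rfc2* and *Rfc3* also passed as lower in limma (adjusted p = 0.0334, 0.0325, 0.0467, 0.0148 and 0.0119). Without the trend *Mcm4*, *Pcna*, *Rfc1* and *Rfc4* no longer passed (0.0711, 0.0839, 0.0594 and 0.0604). Signs turned with equal totals for *Cdc45* (−0.26), *Rfc1* (−0.021) and *Rpa1* (−0.20), and without mitochondrial transcripts for *Cdc45* (−0.10) and *Rpa1* (−0.031). The cause was not tested.

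Deviations from the group mean did not run together in libraries with the same replicate number (correlations of 0.08, −0.33 and −0.30). No library correlated best with its own number. Deviations within a group sum to 0, so these correlations depend on each other. They cannot show whether same-numbered libraries were prepared together. With the replicate block 28 of the 43 genes were lower and 0 higher, without *Gins4*, *Pcna*, *Rfc4* and *Rfc1* (limma adjusted p = 0.0758, 0.0570, 0.0569 and 0.0563), and 1 of the other replication genes was higher. The shallowest library, VEC-null 1, had 6036155 reads, and the least abundant of the 43 genes had a mean of 37.1 normalized counts.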

Other observations

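Genes that start next to a replication gene on the other strand gave another view of the same loci. Of the 43 genes, 10 have an annotated protein-coding neighbour whose start lies within 1000 bases on the opposite strand, and 9 of these neighbours were tested. By limma 0 of the 9 fell and 1 rose (*Ufd1*, beside *Cdc45*), with 1 lower at an unadjusted p under 0.05 and a median log2 fold change of −0.22, and 7 of the 9 values were below 0. Of all tested genes 16.4% fell and 20.9% rose, so in 9 genes these counts are close to that background. By edgeR and DESeq2 also 0 fell, with 3 and 2 lower at an unadjusted p under 0.05, and 1 rose. Of the 9 replication genes beside them, 5 fell. The neighbour of *Mcm4* is *Prkdc*, a DNA repair kinase (287 ± 50.8 and 247 ± 13.9 normalized counts, −0.20, limma adjusted p = 0.304). The neighbour of *Mcm7* is *Ap4m1*, an adaptor subunit (236 ± 47.6 and 178 ± 13.2, −0.39, adjusted p = 0.0887), and the annotated genes overlap by 421 bases. Beside *Orc6* lies *Vps35*, a retromer subunit (1562 ± 262 and 1307 ± 29.5, −0.24, adjusted p = 0.133). A p that misses the threshold does not show that these neighbours did not change, and the difference between a replication gene and its neighbour was not tested.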
